A study of Homo sapiens with 8 samples.

Results

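The SOX genes encode transcription factors that share a DNA-binding domain, the HMG box, with the sex-determining factor SRY. Here they are SOX9, SOX2, SOX4 and SOX5, the only 4 of a list of 19 SOX genes with a transcript cluster in the authors' deposited table of A375 shPLK1 cells (PLK1 knockdown) against A375 shNS cells (nonsense control). They have 5 of its 491 clusters, a cluster being the set of probes read as 1 transcribed locus, and the table classes 4 of these as coding and 1 of SOX4 as noncoding. The genes were chosen by their presence in that table, which holds clusters that differ by at least 1 on the log2 scale, so their difference between the groups is a description and carries no test here. The other 15 SOX genes, SOX10 among them, have no cluster in the table, and their values were not analysed here. The paper set a p-value limit beside a fold limit for its list of changed genes, so absence need not mean a small difference.

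A375 is a human melanoma cell line. Both groups carried a lentiviral shRNA plasmid that doxycycline switches on, against PLK1, a kinase of mitosis, in shPLK1 cells and without a target in shNS cells, and both received doxycycline for 48 h before total RNA was taken. There are 4 arrays of shPLK1 and 4 of shNS cells. The paper describes its A375 shPLK1 and shNS lines as stable polyclonal pools, and the array cells as lines created earlier. Replicates were taken to be cultures of 1 pool each, which the titles do not state. The effect of the knockdown therefore cannot be told apart from a difference between the pools. The labels name several shPLK1 constructs and do not say which one these cells carried. Of the column headings in the table, NS was read as shNS and 5d, for which no source used here gives a meaning, as shPLK1, the only group besides shNS. Every direction of a cluster rests on that reading.

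SOX proteins bend DNA at short sites and act with partner factors, and they set cell identity in the embryo. SOX10, a relative of SOX9, drives the melanocyte lineage and the genes of glia. SOX9 acts in cartilage, testis and neural crest, SOX2 in stem cells and neural progenitors, SOX4 in progenitors of many tissues, and SOX5, which lacks an activation domain of its own, works beside SOX9 in cartilage. In melanoma, SOX9 is known as a marker of the undifferentiated state.

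RefSeq promoters of SOX2, SOX4 and SOX5 (GRCh38.p14, from 250 bases before to 50 bases after the gene start, 5′ to 3′) are shown. No promoter sequence of SOX9 was at hand, so SOX9 could not be searched and is not set against these 3 genes. Capitals mark 4 short motifs searched on both strands: the SOX core ACAAT, read as ATTGT on the other strand, the CCAAT box, read as ATTGG, the core TGGGAA of RBPJ, the DNA-binding partner of NOTCH, read as TTCCCA, and the E-box CACCTG bound by SNAIL, read as CAGGTG. SOX2 lies at chr3:181711675-181711974 on the plus strand, SOX4 at chr6:21593501-21593800 on the plus strand and SOX5 at chr12:24562442-24562741 on the minus strand.
SOX2: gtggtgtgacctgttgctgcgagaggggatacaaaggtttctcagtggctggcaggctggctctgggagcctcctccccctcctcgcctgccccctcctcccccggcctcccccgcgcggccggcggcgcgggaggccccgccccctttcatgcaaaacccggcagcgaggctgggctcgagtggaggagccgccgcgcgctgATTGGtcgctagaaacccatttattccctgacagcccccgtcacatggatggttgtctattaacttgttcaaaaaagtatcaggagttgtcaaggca
SOX4: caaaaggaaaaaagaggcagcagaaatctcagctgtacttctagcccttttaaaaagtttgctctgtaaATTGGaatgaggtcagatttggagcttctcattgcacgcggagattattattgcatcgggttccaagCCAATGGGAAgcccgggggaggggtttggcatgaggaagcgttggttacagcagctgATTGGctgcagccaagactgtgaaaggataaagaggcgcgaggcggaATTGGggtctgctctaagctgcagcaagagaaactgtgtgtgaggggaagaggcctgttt
SOX5: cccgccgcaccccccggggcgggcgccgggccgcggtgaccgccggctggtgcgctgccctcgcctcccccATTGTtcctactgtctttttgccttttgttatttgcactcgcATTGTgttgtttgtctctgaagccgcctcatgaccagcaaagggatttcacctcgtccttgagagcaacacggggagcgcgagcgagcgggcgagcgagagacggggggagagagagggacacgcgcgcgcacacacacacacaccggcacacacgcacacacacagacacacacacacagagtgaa

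The SOX5 promoter held 2 matches to the SOX core, which start 179 and 137 bases before the gene start, and those of SOX2 and SOX4 held none. The SOX4 promoter held 4 matches to the CCAAT box, at 181, 114, 57 and 10 bases before the start, and 1 to the RBPJ core, at 110 bases before the start, which shares 1 base with the CCAAT match beside it. The SOX2 promoter held 1 match to the CCAAT box, 47 bases before the start, and none of the 3 promoters held the SNAIL E-box. Of 35116 RefSeq promoters of the same length, 27.4% held the SOX core, 34.6% the CCAAT box, 24.0% the RBPJ core and 20.6% the SNAIL E-box, so each of these motifs is common. These shares count promoters with 1 match or more. The share with as many matches as in SOX4 or SOX5 was not counted. GC content was 63.3% in SOX2, 49.3% in SOX4 and 63.7% in SOX5, against a median of 58.7% over all these promoters. A match is a string of letters in a window, not a bound site.

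SOX9 was the 1 SOX gene with a higher cluster in shPLK1 cells. Its coding cluster (TC17000819.hg.1, chromosome 17) had a group average of 8.81 in shPLK1 and 7.57 in shNS on the log2 scale, a difference of 1.24, or 2.36-fold. Averages here are the authors' bi-weight averages, robust means over the arrays of a group, deposited without a spread and rounded to 0.01 log2 units, so no standard deviation or per-array value can be given for a SOX cluster. In RNA of whole cultures, more RNA per cell and more cells that express a gene cannot be told apart.

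SOX2, the stem cell and neural progenitor factor, had a coding cluster (TC03000969.hg.1, chromosome 3) at 5.75 in shPLK1 and 7.48 in shNS, a log2 difference of -1.73, or 3.32-fold lower in shPLK1. RefSeq places SOX2 inside the long noncoding gene SOX2-OT, which has no cluster of that name in the table. The arrays were not given with positions, so the signals of the 2 genes were not separated here.

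SOX4, whose protein acts with its relative SOX11 in progenitor cells, had 2 clusters. The coding one (TC06000135.hg.1, chromosome 6) stood at 6.15 in shPLK1 and 7.26 in shNS, a log2 difference of -1.11, or 2.16-fold lower. The noncoding one (TC06002615.hg.1, also with a chromosome 6 ID) stood at 5.03 in shPLK1 and 7.17 in shNS, a log2 difference of -2.14, or 4.41-fold lower. Both clusters had the same sign, with a gap of 1.03 log2 units between their differences, and no file used here says which part of the SOX4 locus the noncoding cluster covers.

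SOX5 had the largest difference of the 5 clusters. Its coding cluster (TC12001307.hg.1, chromosome 12) stood at 5.65 in shPLK1 and 8.17 in shNS, a log2 difference of -2.52, or 5.74-fold lower in shPLK1. SOX5 is also the longest of the 4 genes, with a span of 1033147 bp in RefSeq (GRCh38.p14), beside 5397 bp for SOX9, 4869 bp for SOX4 and 2512 bp for SOX2. Which stretch of that locus the SOX5 cluster covers is not known here, and shorter and longer SOX5 transcripts were not separated here.

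**Figure D1:**
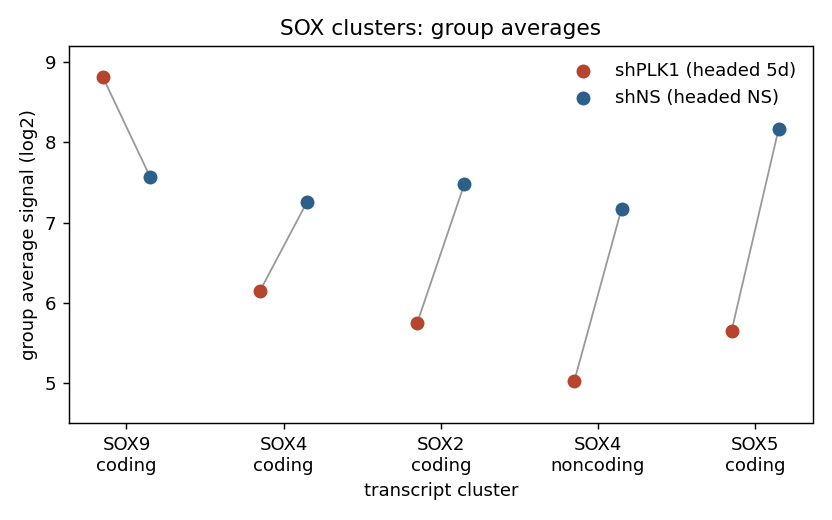
Group averages (log2 signal, vertical axis) of the 5 SOX clusters (horizontal axis), with shPLK1 in red at the left and shNS in blue at the right of each pair, and grey lines joining the 2 averages of a cluster. SOX9 is the pair with the higher shPLK1 average (8.81 and 7.57), and the other 4 pairs have the lower one in shPLK1, with SOX5 the steepest (5.65 and 8.17); no error bars are drawn since the averages were deposited without a spread, and levels of different clusters are not on 1 scale of abundance.

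In all, 1 of the 5 SOX clusters was higher in shPLK1 and 4 were lower, while 37.7% of all 491 clusters in the table were higher and 62.3% lower. The direction of a cluster belongs to the contrast that chose the genes, so nothing is read from this count. The difference of SOX9 lay 2.35 log2 units above that of the SOX4 coding cluster, 2.97 above SOX2, 3.38 above the SOX4 noncoding cluster and 3.76 above SOX5. By size, SOX9 was rank 91 of the 185 higher clusters, at their median of 1.24. SOX5 was rank 36 of the 306 lower clusters, the SOX4 noncoding cluster rank 63, SOX2 rank 104 and the SOX4 coding cluster rank 252, where the median lower cluster differed by 1.47 in size. The SOX clusters were therefore neither the highest nor the lowest of the table, whose differences ran from -6.94 to 2.83. SOX4 coding lay closest to the limit of the table, 0.11 log2 units past it, and no value outside the limit was at hand for any SOX gene.

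**Figure D2:**
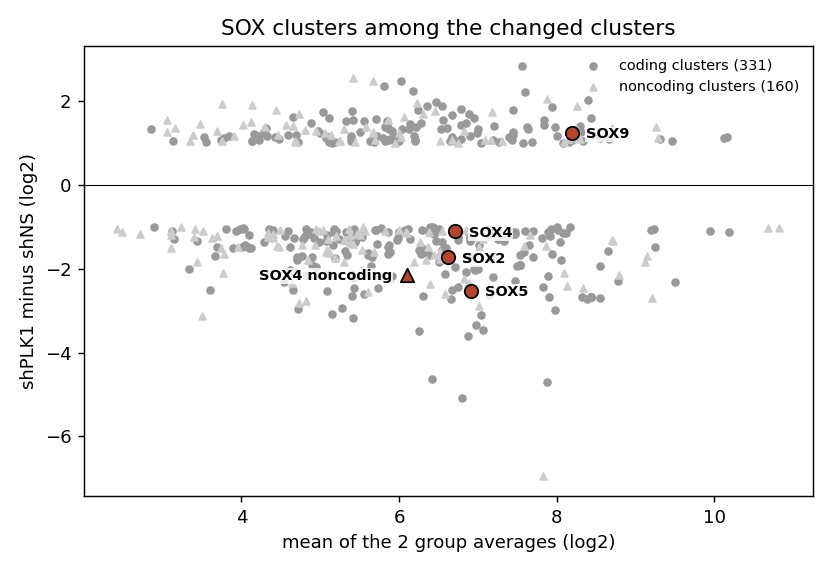
Difference shPLK1 minus shNS (log2, vertical axis) against the mean of the 2 group averages (log2, horizontal axis) for the 491 clusters of the table, with circles for 331 coding and triangles for 160 noncoding clusters, and SOX clusters in red. SOX9 (1.24) lies above the empty strip around 0, which the limit of the table makes, and SOX4 coding (-1.11), SOX2 (-1.73), SOX4 noncoding (-2.14) and SOX5 (-2.52) lie below it.

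SOX4 is one of 36 symbols with clusters of both kinds in the table. In all 36 the coding and the noncoding cluster (or their mean, where a symbol had several of a kind) had the same sign, and in 24 the noncoding difference was the larger one, by a median of 0.11 log2 units over the 36. The gap of 1.03 log2 units in SOX4 was rank 5 of the 36 in favour of the noncoding cluster. ERBB3, the neuregulin receptor, had a gap of 0.65 log2 units the same way. Both clusters of a symbol had to pass the limit of the table, and they can share probes or RNA, so the common sign is a description only.

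**Figure D3:**
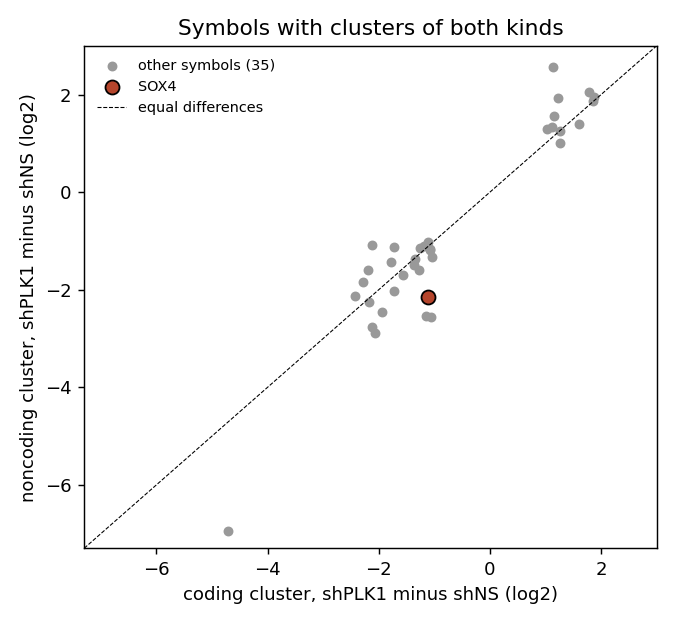
Difference shPLK1 minus shNS (log2) of the noncoding cluster (vertical axis) against that of the coding cluster (horizontal axis) for the 36 symbols with both kinds, each a mean where several clusters exist; the dashed line marks equal differences. SOX4 (red, -1.11 coding and -2.14 noncoding) lies below the line, and every symbol lies in the lower left or the upper right.

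Because the clusters carry no spread, single exon probe sets of the same level were taken to show what the 8 arrays give there. Around the SOX9 level (within 0.25 log2 units of 8.19), the within-group SD of 25263 exon probe sets had a median of 0.17 log2 units, and 1.22% of them were over 1 log2 unit higher in shPLK1. Around the levels of the 4 lower clusters (6.10 to 6.91), the median SD was 0.19 at SOX5, 0.20 at SOX2 and at SOX4 coding, and 0.22 at SOX4 noncoding. There 432 of 35908 probe sets at the SOX5 level, 1.28% at SOX2, 1.27% at SOX4 coding and 1.47% at SOX4 noncoding were over 1 log2 unit lower in shPLK1. A probe set is a smaller unit than a cluster, so these are the spreads of single exons and not the errors of the SOX averages. Over all 573909 exon probe sets, limma called 1.99% higher and 2.20% lower in shPLK1 at a Benjamini-Hochberg adjusted p under 0.05. At the SOX9 level limma called 3.90% higher and 3.57% lower. At the levels of the 4 lower clusters it called 2.46% (SOX4 noncoding) to 2.89% (SOX5) higher and 2.88% (SOX2) to 2.96% (SOX5) lower. None of the called probe sets was assigned to a SOX gene, since no table used here pairs probe sets with genes.

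The averages were also set beside the 23 background controls of the array, probes with no human target, whose means ran from 1.36 to 10.8 with a median of 2.98. In shPLK1 cells the SOX9 average (8.81) lay at or below 1 control, and in shNS cells (7.57) at or below 4. The SOX5 average in shPLK1 (5.65) lay at or below 8 controls and that in shNS (8.17) at or below 3. For SOX2 the numbers were 7 in shPLK1 and 4 in shNS, for SOX4 coding 7 in shPLK1 and 4 in shNS, and for SOX4 noncoding 9 in shPLK1 and 5 in shNS. Controls rise with their GC content, and the GC content of the SOX probes is not known here, so the lower averages may hold background and the folds need not be exact sizes.

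The 4 genes lie on different chromosomes, and the shift of each chromosome between the groups was measured over its exon probe sets. Each value of an exon probe set was centred on the mean of its 8 arrays, for probe sets averaging 7 or more, and the shift of a chromosome in an array is the median of its centred values minus that of the whole genome. On chromosome 17, which carries SOX9, the shift was 0.0013 to 0.0173 in the shPLK1 arrays and -0.0171 to -0.0048 in the shNS arrays. These groups did not overlap, and they differed by 0.023 log2 units (standard error 0.0053; limma fitted to 23 chromosomes gave an adjusted p of 0.0038, and a two-sided exact permutation test over arrays gave p = 0.029, which is as low as this design can go). On chromosome 3, which carries SOX2, the shift was 0.0124 to 0.0340 in shPLK1 and -0.0274 to -0.0176 in shNS, a difference of 0.045 (standard error 0.0060, adjusted p = 9.8e-05 from limma). On chromosome 12, which carries SOX5, it was 0.0071 to 0.0189 in shPLK1 and -0.0158 to -0.0037 in shNS, a difference of 0.023 (standard error 0.0047, adjusted p = 0.0023 from limma). On chromosome 6, which carries SOX4, the groups overlapped, at -0.0081 to 0.0070 in shPLK1 and -0.0039 to 0.0045 in shNS (adjusted p = 0.83 from limma). Over the 23 chromosomes the group difference ran from -0.248 on chromosome 13 to 0.377 on chromosome 18, and it was 0.023 on chromosome X. It was also larger in size than on chromosome 3 on chromosomes 1 (-0.067), 15 (0.090) and 20 (0.056). On others it was near 0, such as chromosomes 7 (0.0015) and 16 (0.0017). Differences of the size seen on chromosomes 17, 3 and 12 were therefore not particular to them. Overlap of the groups was not counted on the other chromosomes, so the separation is not shown to be particular to chromosomes that carry SOX genes. With the chromosome shift taken off, SOX9 stood at 1.22, SOX2 at -1.78 and SOX5 at -2.54 on the log2 scale.

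**Figure D4:**
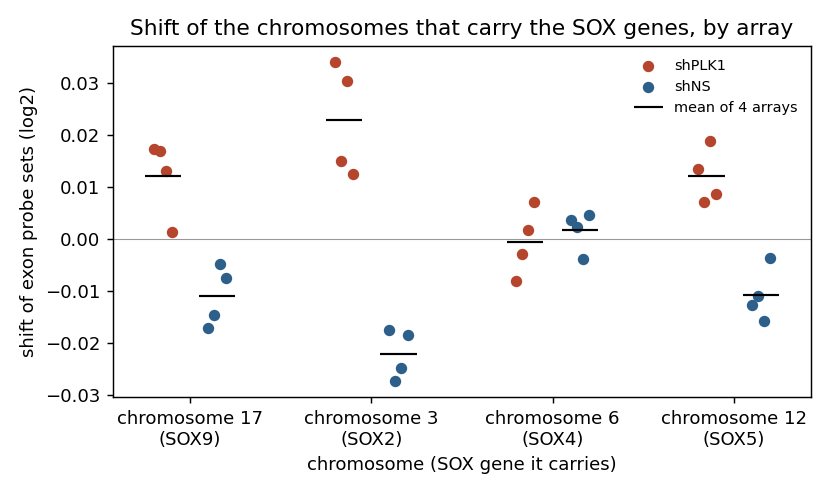
Shift of the exon probe sets (log2, vertical axis) of the 4 chromosomes that carry the SOX genes (horizontal axis), 1 point per array, shPLK1 in red at the left and shNS in blue at the right, with black lines at the mean of 4 arrays. The groups lie apart on chromosomes 17, 3 and 12 and overlap on chromosome 6, and all points lie between -0.0274 and 0.0340. Other chromosomes are not drawn, and some of them differed by more between the groups (0.377 on chromosome 18).

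Table clusters with IDs of these chromosomes went both ways. On chromosome 17 there were 8 clusters, 2 higher and 6 lower, with SOX9 one of the higher pair. On chromosome 12 there were 31 clusters, 12 higher and 19 lower, and SOX5 was rank 3 among the lower ones. Chromosome 3 had 22 clusters, 10 higher and 12 lower, with SOX2 at rank 5 among the lower ones, and chromosome 6, without the MHC haplotype sequences, had 27, 10 higher and 17 lower, with the noncoding cluster of SOX4 at rank 5 and the coding one at rank 14 among the lower. Of the 80 RefSeq genes nearest to the 4 SOX genes (10 on each side, protein-coding and long noncoding, matched by symbol or synonym), 0 had a cluster in the table, and of all 38382 RefSeq genes of these kinds 264 (0.688%) had one, so a count of 0 is near that background.

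Genes tied to SOX factors by known function were looked up in the table, in which 246 of 20052 RefSeq protein-coding genes (1.23%) had a cluster. Of 26 partners and regulators of SOX proteins, 3 had a cluster, 1 higher and 2 lower. SMAD3, a mediator of TGF-β signaling, had a noncoding cluster at 9.85 in shPLK1 and 8.73 in shNS, a log2 difference of 1.12. LEF1, a Wnt factor with an HMG box like that of the SOX proteins, stood at 5.81 in shPLK1 and 6.94 in shNS, a log2 difference of -1.13. HES1, a repressor switched on by NOTCH, had a noncoding cluster at 5.27 in shPLK1 and 6.37 in shNS, a log2 difference of -1.10. Neither SMAD3 nor HES1 had a coding cluster in the table.

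Of 14 genes known as targets of SOX10, ERBB3 and CDH19 were in the table, both lower in shPLK1. ERBB3 stood at 5.52 in shPLK1 and 7.64 in shNS in its coding cluster, a log2 difference of -2.12, and at 3.43 in shPLK1 and 6.20 in shNS in its noncoding cluster, a log2 difference of -2.77. CDH19, a cadherin of glia and melanocyte precursors, stood at 3.87 in shPLK1 and 5.35 in shNS (log2 difference of -1.48). Of 15 SOX2 targets, 1 was in the table, NES, the intermediate filament of neural progenitors, at 5.73 in shPLK1 and 7.68 in shNS (log2 difference of -1.95). Of 22 SOX9 targets, many of them cartilage genes, the 1 in the table was SOX5 itself, lower where SOX9 was higher. None of 12 targets of SOX4 and SOX11 and none of 7 noncoding genes beside SOX genes, SOX2-OT and SOX9-AS1 among them, had a cluster. Over all 305 symbols of the table, 128 were higher and 177 lower, with a median log2 difference of -1.08. A gene absent from the table may lie under its limits, so absence says nothing of its level.

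**Figure D5:**
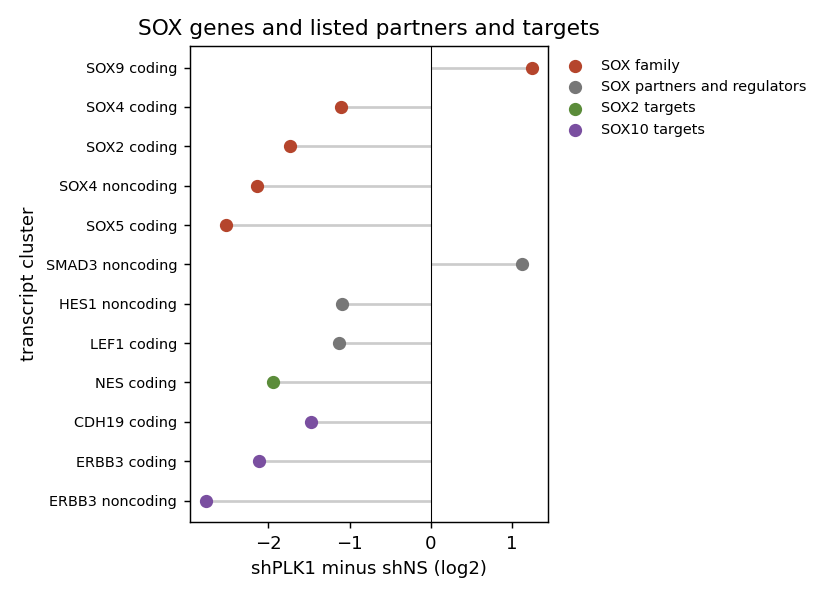
Difference shPLK1 minus shNS (log2, horizontal axis) of the SOX clusters and of the clusters of SOX partners and targets in the table (vertical axis), coloured by list, 1 point per cluster. SOX9 (1.24) and SMAD3 (1.12) lie right of 0, and the other 10 clusters lie left of it, down to -2.77 for the noncoding cluster of ERBB3.

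The named clusters most like each SOX cluster were taken as the 3 nearest in the plane of the 2 group averages, by distance in log2 units over those 2 values. Nearest to SOX9 were the noncoding cluster of NR2F1, an orphan nuclear receptor, at 8.70 in shPLK1 and 7.61 in shNS (distance 0.12), RAB27B, a GTPase of vesicle transport, and the histone gene HIST1H4H. Nearest to SOX2 were PCSK1, a prohormone convertase, at 5.74 in shPLK1 and 7.51 in shNS (distance 0.03), the noncoding cluster of the transcription factor RUNX3, and FXYD3. SOX4 coding lay nearest to GAGE13 (distance 0.05) and FOXO1 (distance 0.10), a forkhead transcription factor, and then to the noncoding cluster of LINC00460. SOX4 noncoding lay nearest to the noncoding cluster of LINC00622 (distance 0.25) and to the clusters of CLDN10-AS1. SOX5 had the coding cluster of RP11-408N14.1 (distance 0.24), the noncoding cluster of MGP, a matrix protein that inhibits calcification, and a coding cluster of HLA-DRB1 as its nearest. This likeness is one of 2 averages alone.

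The cell type could not be checked against its markers here, since the table lists only clusters that differed between the groups and probe sets were not paired with genes. Across exon probe sets, which share arrays and are no replicates of each other, Pearson's r was 0.979 to 0.985 between shPLK1 and shNS arrays and 0.986 to 0.991 within a group. PLK1 itself has no cluster in the table, and the depth of its knockdown was not read from the arrays.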

How the data were processed

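RNA of A375 shPLK1 and shNS cells (4 arrays each, groups and replicate numbers from the titles) was hybridized to Affymetrix Human Transcriptome Arrays. The authors processed the scans by RMA in the Transcriptome Analysis Console and deposited log2 values of 573909 exon and 339146 junction probe sets, and a table with 2 bi-weight averages (log2), 1 per group, for 491 transcript clusters. Its further columns hold the authors' own fold changes and p-values and were not used. The study's methods give 3 replicates per group, and all 8 arrays were used; their number limits the precision. The array annotation and genome build are not given in the sources used here.

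SOX differences are the 5d average minus the NS average. limma (3.58.1, R 4.3.3) with group as the only term, tested on simulated data, was fitted to all exon probe sets and to 23 chromosome shifts, with Benjamini-Hochberg adjustment; its p-values measure the spread between cultures. RefSeq (GRCh38.p14) matched the symbols of all 4 SOX genes, 242 of the 305 table symbols, and promoters of 3 members. Named are all SOX clusters, the 3 nearest clusters and the list members in the table, except 1 gene of the SOX10 list, which is left out of its count of 14 and not reported here. The members and lists were chosen with earlier results of these data known. Alternatives were other centrings, probe set filters, tests and arrays left out.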

Additional observations from a re-analysis of the deposited data

How the results depend on the processing

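The chromosome shift and the median of probe sets at their level were each taken off the SOX differences. Each of these moved them by less than the spread of single probe sets. Every SOX difference was at least 1 in size by the table's limit. The amounts taken off were far smaller (0.045 at most, the chromosome 3 shift), so no sign could change. Less the median difference of all table clusters of the same kind, SOX9 stood at 2.36, SOX2 at -0.61, SOX4 noncoding at -1.02 and SOX5 at -1.40, while SOX4 coding turned to 0.01. That median is set by the table's 2-fold limit and its many lower clusters, so these values do not show how a SOX direction depends on the processing. The ordinary equal-variance test called 7432 exon probe sets higher (limma 11422). No other count moved by over 1.5 times: with the replicate number as a block 8077 were higher and 9161 lower, and with 1 array left out 8140 to 9614 were higher and 9800 to 11198 lower. Counts over unlike numbers tested hide a change of share. Of the 286955 exon probe sets with a mean at or above the median, 12491 were called higher and 12995 lower. Their called shares were thus larger than those over all 573909. Deviations of same-numbered arrays correlated at -0.14 to 0.04 and those of other-numbered arrays at -0.20 to 0.16. Same-numbered arrays were thus no more alike, and whether cultures were handled in pairs is not known here. The chromosome 17 shift was 0.0146 over probe sets of all levels (adjusted p = 0.080 from limma) and 0.0188 to 0.0274 with 1 array left out (adjusted p of at most 0.019). No other chromosome shift changed its side of the threshold, and all 50 alternative values of the level spread moved by less than 0.5 of its interquartile range. The cause of these moves was not tested. Leaving out rows of haplotype and unplaced sequences was chosen after seeing the data and called 11362 higher and 12160 lower.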
